A study of Mus musculus with 28 samples.

Results

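The nuclear genes of the mitochondrial respiratory chain were followed through 28 RNA-seq libraries of transformed mouse embryonic fibroblasts. They were chosen by name alone: every row of the count table whose symbol starts with Nduf, Uqcr, Cox4, Cox5, Cox6, Cox7, Cox8 or Atp5, and Sdha to Sdhd. This gave 92 of 24079 rows. By the complex to which they belong they were 36 genes of complex I, 8 assembly factors of complex I, 4 of complex II, 8 of complex III, 20 of complex IV and 16 of complex V. Ndufa4 and Ndufa4l2 were placed with complex IV, and Atp5sl, whose product takes part in complex I assembly, with the assembly factors.

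The respiratory chain sits in the inner mitochondrial membrane. Complex I takes electrons from NADH and complex II from succinate, and both pass them through ubiquinone to complex III, then by cytochrome c to complex IV, which reduces oxygen. Complexes I, III and IV pump protons, and complex V, the ATP synthase, uses their return to make ATP. A few core subunits are encoded by mitochondrial DNA, and the remaining ones by nuclear genes such as those described here. The table held 0 rows for the mitochondrially encoded subunits, so the nuclear side alone was measured.

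All libraries came from one kind of cell, MEFs of C57BL/6x129Sv background transformed with RAS/DNP53, and the lines are clones. Clones 12 and 14 carried tagged cyclin D1 (Ctag), and each gave 1 library untreated, 1 with leptomycin B at 20 ng/mL, 1 with the control siRNA SCR, and 1 each with the siRNAs FLAG and HA, named for the tags, and with Qiagen, Nature and Life, which the labels describe as cyclin D1 RNAi. Clones 18 and 25 carried untagged cyclin D1 and were sampled once each under SCR, FLAG and HA siRNA. Clone 18 with mCherry/PURO or with FLAG-mCherry-HA/PURO gave 3 libraries per construct, 2 with HA and 1 with FLAG siRNA. Cells were collected the morning after overnight transfection or treatment. The label of the untreated clone 12 library carries a date that the siRNA libraries do not, so untreated and transfected cells may stem from different days, and this cannot be told apart from the treatment. Most groups held 2 libraries, 1 per clone. In the main edgeR fit the groups shared 1 estimate of spread for each gene, which comes mostly from how evenly the clones responded to treatments. For differences between clones, with 1 clone on each side, p-values measure the spread of libraries and not of clones.

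Depth ran from 26558256 to 81512769 counts per library, and the 92 genes together took 0.984% to 1.66% of them. Cyclin D1 mRNA (Ccnd1) was at 1128 and 1287 CPM (counts scaled to library size) with SCR in the tagged clones and between 50.1 and 329 CPM with the 5 targeting siRNAs. With FLAG or HA siRNA in the untagged clones it stayed between 1014 and 1293 CPM. The SCR library of clone 12 had the fewest genes with counts, 14132, and 4 libraries had over 2% of their counts in the ribosomal RNA precursor Rn45s: Life clone 14 (3.48%), mCherry HA replicate 2 (2.75%), Nature clone 14 (2.42%) and HA clone 12 (2.22%). One clone went against the fibroblast label in part of its markers. In clone 14 the collagen genes Col1a1 and Col1a2 had medians of 0.471 and 1.16 CPM over 8 libraries, against 570 and 2199 CPM in clone 12, and Thy1 was at 0 in the median library. The epithelial gene Cdh1 was at 30.9 CPM there and at 0.764 CPM in clone 12. Of the fibroblast markers Vim alone had a higher median in clone 14 (6171 CPM) than in clone 12 (4647 CPM). Col3a1 was lower but present, at 173 against 411 CPM. Of the epithelial markers Krt8 and Krt18 were also higher in clone 14, Epcam was lower (0.0760 against 0.343 CPM), and Cldn4 had a median of 0 in both. The summed level of the 10 fibroblast markers was 4881 to 8464 CPM in clone 14 and 7713 to 11732 CPM in the other clones, and that of the 5 epithelial markers was 970 to 1958 CPM in clone 14 against 87.4 to 1174 CPM elsewhere. Vim made up most of the fibroblast sum in clone 14, with a median of 6171 CPM beside 6662 CPM for the sum. These medians were 4647 and 10256 CPM in clone 12, 6592 and 9918 CPM in clone 18, and 2906 and 8055 CPM in clone 25. Krt18 made up most of the epithelial sum, with medians of 1157 CPM in clone 14, 831 in clone 18, 435 in clone 25 and 145 in clone 12. Muscle, endothelial and adipocyte lists had 0 genes with a median of 1 CPM or more over the 28 libraries, and the macrophage list had 1, Cd68. One muscle marker, Des (desmin), was at 5.32 to 13.1 CPM in the 9 libraries of clone 18 and its mCherry lines, at 0.368 to 0.775 CPM in clone 25 and at most 0.100 CPM in clones 12 and 14.

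Of the 92 genes, 84 passed the filter on low counts, and the lowest mean among these was 1.29 CPM. Levels between genes are compared here as RPKM, which is CPM per kilobase of transcript. Complex V stood at the top, with a median of 302 RPKM over its 16 tested genes and with Atp5b, the catalytic beta subunit, highest of all genes of the set at 789 RPKM. Ndufa4 (553 RPKM), Cox6c (519) and Cox4i1 (506) led complex IV, and Uqcrh (518), the hinge protein, led complex III. Complex I had a median of 88.9 RPKM over 35 genes, from 8.64 for Ndufab1, the mitochondrial acyl carrier protein, to 272 for Ndufa2. Complex II was similar, with a median of 81.0 RPKM, and the assembly factors were lowest, with a median of 14.3 RPKM and a range from 3.70 (Ndufaf3) to 57.0 (Ndufaf2).

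**Figure D1:**
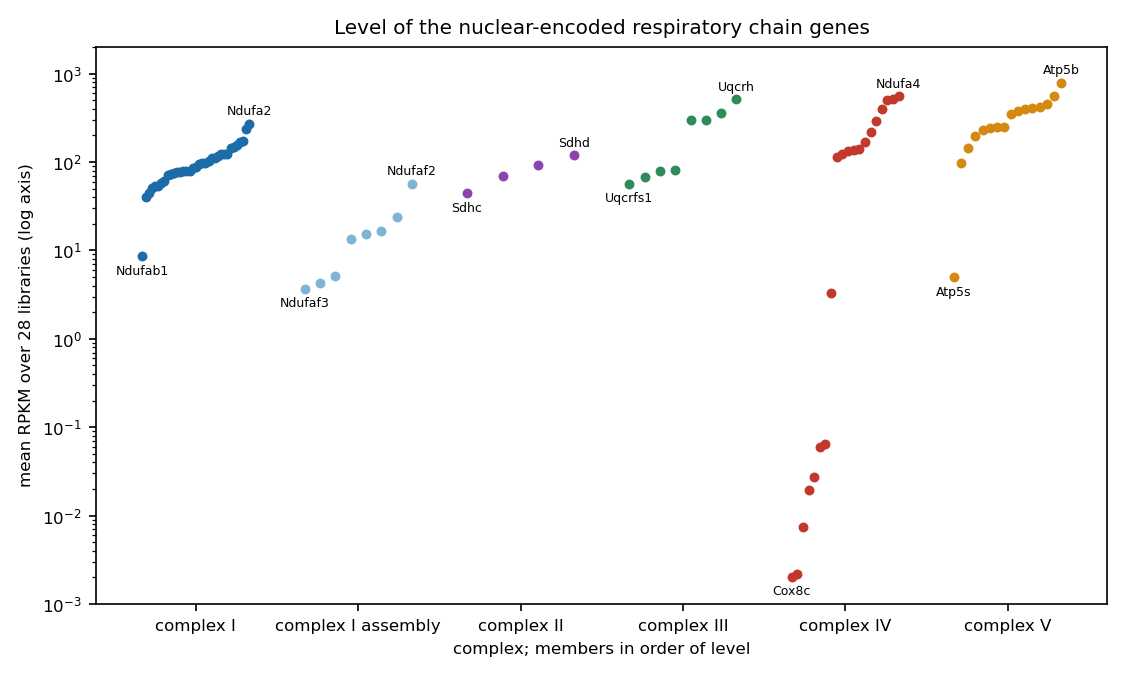
Mean level of the respiratory chain genes over the 28 libraries, in RPKM on a log axis, by complex and in order of level; each point is 1 gene. The low points of complex IV are the 7 isoforms that did not pass the filter and Cox7a1, and Ndufs5, at 0 counts, is not drawn.

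The complex IV subunits with tissue-specific copies used the common isoform. Cox4i2, Cox6a2, Cox6b2, Cox7b2, Cox8b, Cox8c and the complex IV relative Ndufa4l2 did not pass the filter, with means of 0.000790 to 0.0467 CPM and 1 to 52 counts in all 28 libraries together. Their partners Cox4i1, Cox6a1, Cox6b1, Cox7b, Cox8a and Ndufa4 were at 382, 75.4, 245, 220, 93.1 and 337 CPM. Cox7a1, the heart and muscle form of subunit 7a, was the exception that passed the filter, at a mean of 1.29 CPM against 191 CPM for Cox7a2. All 3 genes for the membrane ring subunit c of the ATP synthase were in use, at 558 RPKM for Atp5g3, 401 for Atp5g2 and 98.1 for Atp5g1. Ndufs5, a small subunit of complex I, had 0 counts in every library, where 3 counts would be 0.0368 to 0.113 CPM. The sources used here do not say how reads that match several places were counted, so this row says nothing firm about the gene, and other members with near-identical copies are uncertain to the same degree.

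Promoter sequence is shown for 4 genes to which the results below return: Ndufaf4, which fell with leptomycin B, Uqcrc1, which fell with the Life siRNA, Cox7a1, which set clone 14 apart, and Atp5k, which was lower in clone 14. Each line gives the 150 bases before the transcription start of RefSeq (build GRCm38.p6), 5′ to 3′ on the strand of the gene. Capitals mark matches to the motif of NRF1, a factor known for binding many respiratory chain promoters.

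Ndufaf4 (chr4:24897933-24898082, plus strand): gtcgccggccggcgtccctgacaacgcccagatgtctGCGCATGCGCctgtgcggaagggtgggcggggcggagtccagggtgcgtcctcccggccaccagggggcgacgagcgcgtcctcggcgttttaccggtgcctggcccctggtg
Uqcrc1 (chr9:108936498-108936647, plus strand): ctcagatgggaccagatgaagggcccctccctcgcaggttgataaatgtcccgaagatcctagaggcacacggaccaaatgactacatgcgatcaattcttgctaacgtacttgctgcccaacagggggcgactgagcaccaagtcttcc
Cox7a1 (chr7:30184021-30184170, plus strand): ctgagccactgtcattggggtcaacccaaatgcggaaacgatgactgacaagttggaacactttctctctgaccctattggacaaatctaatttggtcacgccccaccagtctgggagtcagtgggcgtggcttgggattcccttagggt
Atp5k (chr5:108434400-108434549, minus strand): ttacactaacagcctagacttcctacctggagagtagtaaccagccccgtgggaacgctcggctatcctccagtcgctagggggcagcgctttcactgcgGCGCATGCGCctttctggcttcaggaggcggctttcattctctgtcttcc

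Ndufaf4 and Atp5k each hold the palindrome that contains the NRF1 motif on both strands, counted as 2 overlapping matches. In Uqcrc1 and Cox7a1 these letters are not in the window. The motifs searched on both strands of the 250 bases before each start were GCGCATGCG for NRF1, CCGGAAG for ETS/GABPA factors, AANATGGC for YY1 and TNAAGGTCA for ERR. Of the 82 windows of 76 member genes in the promoter table, 7 (8.54%) held the NRF1 motif, against 1.45% of all 32851 windows. The ETS/GABPA motif was in 13 (15.9%) against 6.91%, the YY1 motif in 8 (9.76%) against 3.91%, and the ERR motif in 2 (2.44%) against 1.14%. Genes differ in their number of windows. Counted by gene, the shares were 9.21% of members against 2.18% of 17908 genes for NRF1 and 17.1% against 10.1% for ETS/GABPA. They were 10.5% against 4.38% for YY1 and 2.63% against 1.13% for ERR. These shares are descriptions, and a match is not shown to be bound.

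Across libraries complexes I, III, IV and V moved together. The level of a set in a library is given as the median over its genes of the log2 level, each gene relative to its mean over all libraries. For the 84 genes it was highest in mCherry HA replicate 2 (0.64), Nature clone 12 (0.48) and HA clone 14 (0.37). It was lowest in the untreated libraries of clone 14 (-0.46) and clone 12 (-0.34) and in SCR clone 25 (-0.34). From highest to lowest library the range was 1.33 on the log2 scale for complex IV, 1.19 for complex I, 1.11 for complex V and 1.02 for complex III, but 0.41 for complex II, the complex with 4 genes. Genes outside the chain shared part of this order. In mCherry HA replicate 2 the 83 cytosolic ribosomal protein genes stood at 0.54 and the other genes with transcripts under 1000 bases at 0.58, and in untreated clone 14 they stood at -0.36 and -0.29. In untreated clone 12 they stood at -0.16 and -0.38, and the cytosolic ribosomal protein genes were lowest in SCR and FLAG clone 25 (-0.45 and -0.44). The members are short: their median transcript is 806.75 bases against 2377 for all genes, and 56 of 92 are under 1000 bases, against 15.9% of all genes. The tested genes of complex II were longer, with a median of 2065.5 bases against 618 to 955 bases in complexes I, III, IV and V. With the trend of level on transcript length taken out of each library, the range of the 84 genes shrank from 1.10 to 0.25. By complex it was then 0.35 for I, 0.35 for III, 0.34 for IV and 0.44 for V, beside 0.33 for complex II. In bulk RNA, fewer cells of a type and less RNA per cell cannot be told apart.

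Loss of cyclin D1 was examined by setting the siRNAs against SCR within clones, in tagged clones where FLAG and HA siRNA lower Ccnd1 and in untagged clones where they do not. In tagged clones FLAG and HA siRNA together raised 2 of 84 members, among them Sdhb, and lowered 0, against 3.86% of all genes called (2.03% higher, 1.83% lower). The median of the members was 0.21 on the log2 scale, against 0.03 over all genes, and 76 of 84 were positive. Other genes under 1000 bases had a median of 0.21 there, and those of 1000 up to 2000 bases 0.17. In untagged clones the same siRNAs raised 1 member and lowered 0, with 2.68% of all genes called, a member median of 0.10 and an all-gene median of -0.01. The response of tagged minus untagged clones was called for 0 of 84 members, and for 0.00662% of all genes, which is Ccnd1 alone. There 0 members had an unadjusted p under 0.05, DESeq2 called 0, and the differences ran from -0.46 to 0.38. The 3 cyclin D1 siRNAs together raised 1 member and lowered 0, against 5.4% of all genes, with a member median of 0.10.

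Sdhb, the iron-sulfur subunit of complex II, was at 70.4 CPM in the SCR library of clone 12, where FLAG and HA siRNA gave 105 and 116 CPM, and the same libraries of clone 14 had 87.7, 105 and 138 CPM. Both tag siRNAs lay above SCR in each clone. The tag siRNAs raised it by 0.55 (SE 0.15, adjusted p = 0.0458). In untagged clones it was at 108 and 73.1 CPM with SCR and at 142, 122, 85.2 and 104 CPM with the tag siRNAs. Both tag siRNAs lay above SCR in each untagged clone too (0.33, SE 0.15, edgeR unadjusted p = 0.0394, adjusted p = 0.376), and it was not called there. The difference of the 2 responses was 0.22 (SE 0.21, edgeR unadjusted p = 0.292), so a rise particular to tagged clones was not shown. In tagged clones its call held in 7 of 14 alternative fits. The other complex II genes were not called by the tag siRNAs in either kind of clone.

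The single siRNAs gave the following counts against SCR in tagged clones, which all share the same 2 control libraries. FLAG raised 1 member (2.17% of all genes called), HA raised 2, among them Sdhb (4.11%), and Qiagen raised 1 (5.33%), each with 0 lowered. Nature raised 4 members and lowered 0 (8.56%), and Life raised 1 and lowered 2 (8.29%). In untagged clones FLAG and HA each raised 1 member and lowered 0 (2.02% and 2.16%). In tagged clones the median over members was 0.38 for Nature, 0.31 for HA, 0.09 for FLAG, 0.00 for Life and -0.09 for Qiagen. Ccnd1 was at 50.1 to 73.7 CPM with Nature and Life and at 323 and 329 CPM with Qiagen. With the length trend taken out, the counts higher and lower were 2 and 1 for FLAG, 2 and 2 for HA, 1 and 2 for Nature and 2 and 2 for Life in tagged clones, and 2 and 2 for HA in untagged clones.

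**Figure D2:**
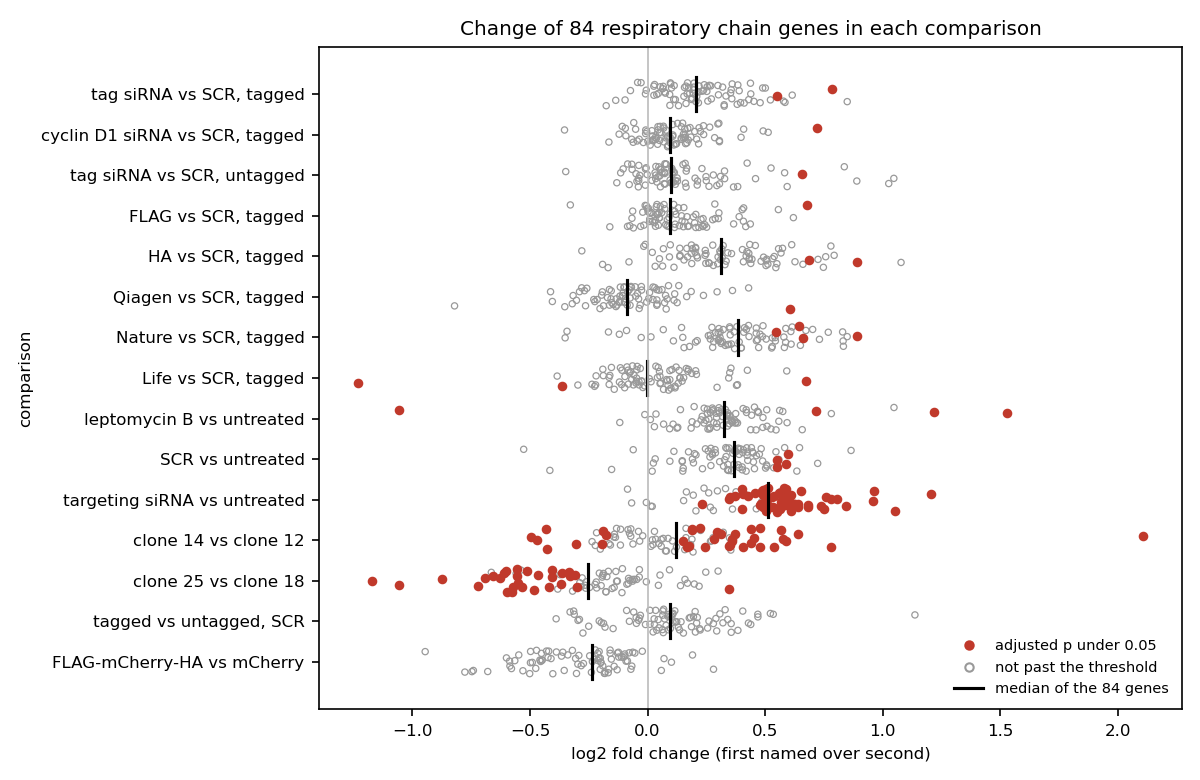
Log2 fold change of the 84 tested genes in 15 comparisons, each point 1 gene, filled red where the edgeR adjusted p was under 0.05; the black bar is the median. Calls are few for each siRNA against SCR, many and all positive for the targeting siRNAs against untreated (61), and of both signs between clones 14 and 12.

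With Nature siRNA the members that rose included the assembly gene Atp5sl (0.66), the complex I subunit Ndufa12 (0.64, adjusted p = 0.0344) and Atp5l, a subunit g of the ATP synthase (0.54, adjusted p = 0.0378). Ndufa12 rose from 81.1 to 175 CPM in clone 12 and from 82.4 to 92.9 CPM in clone 14, so the change lay mostly in 1 clone. Nature clone 12 was also the library with the second highest median level of the whole chain. Without it 0 members were called, and without Nature clone 14, which had 2.42% Rn45s, 26 were. Leaving out all libraries over 2% Rn45s gave 20.

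Life siRNA lowered Uqcrc1, a core protein of complex III (chromosome 9, 108936648 to 108949641), whose promoter is printed above. It was at 50.0 and 51.2 CPM with Life in clones 12 and 14. With SCR it was at 112 and 126 CPM, and with the other 4 targeting siRNAs it lay between 94.6 and 163 CPM. Untreated cells had 90.2 and 90.3 CPM, and the 12 libraries of the other clones 119 to 195 CPM, so both Life libraries lay below all others. The log2 fold change against SCR was -1.23 (SE 0.19, adjusted p = 0.000531), with -1.16 in clone 12 and -1.30 in clone 14. Against the other 4 targeting siRNAs, a comparison chosen after its values were seen, it was -1.39 (SE 0.16, adjusted p = 2.5e-05). Uqcrc1 was called in all 12 alternative fits against SCR, at -1.30 to -1.15.

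Sdhd, a membrane anchor of complex II, was also lower with Life: 115 and 134 CPM against 151 and 169 CPM with SCR (-0.36, SE 0.11, adjusted p = 0.0444). Its adjusted p stayed under the threshold in 5 of 12 alternative fits. Set against the other 4 targeting siRNAs, Life lowered 3 members and raised 0 (14.2% of all genes called): Uqcrc1, Ndufaf4 (-0.45, adjusted p = 0.0195) and Sdhd (-0.28, adjusted p = 0.0356). Sdhd held its call in 7 of 18 alternative fits and was at -0.11 with the length trend taken out (adjusted p = 0.385), and Ndufaf4 was not called without Life clone 12 (adjusted p = 0.13) or Life clone 14 (adjusted p = 0.204). In that comparison 81 of 84 members were negative, with a median of -0.16 against 0.03 over all genes. Other genes under 1000 bases had a median of -0.11 and those of 1000 up to 2000 bases -0.10. The 77 mitochondrial ribosomal protein genes had a median of -0.27 there, with 16 lower and 0 higher.

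Among partners of the chain outside the name rule, Life lowered Cyc1, cytochrome c1 of complex III, by 1.06 on the log2 scale (SE 0.21, adjusted p = 0.00457). Uqcrc1 belongs to the same complex, but it was the only one of the 8 complex III members called with Life against SCR. It lowered 4 of 37 tested assembly factors and raised 1, Ttc19 (0.76), where 8.29% of all genes were called in either direction. The 4 were Atpaf1 (-1.57, adjusted p = 3.01e-05) and Atpaf2 (-0.63), which assemble the catalytic head of the ATP synthase, Coa3 (-0.75) for complex IV, and Lrpprc (-0.39), which stabilises mitochondrial mRNA. Of 16 tested regulators of mitochondrial biogenesis, 2 fell, the coactivators Ppargc1b (-1.89) and Pprc1 (-0.55). Of 18 tested TCA cycle genes 0 were called.

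Leptomycin B blocks the nuclear exporter XPO1, and Xpo1 mRNA rose from 701 and 635 CPM to 1238 and 1193 CPM. Of the 84 members 3 rose and 1 fell against untreated, with 9.99% of all genes called (4.29% higher, 5.7% lower). Ndufaf4, an assembly factor of complex I (chromosome 4, 24898083 to 24905001), was at 54.1 and 51.9 CPM untreated and at 27.1 and 23.8 CPM with leptomycin B. Its level was 46.3 to 80.5 CPM in the other 24 libraries, so the 2 treated libraries were the lowest of all. The log2 fold change was -1.06 (SE 0.15, adjusted p = 0.000264), with -1.0 in clone 12 and -1.1 in clone 14. It held in 11 of 12 alternative fits, at -1.33 to -0.84, and missed the threshold without the clone as a block (adjusted p = 0.0603).

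Ndufb2 and Cox5b rose more in clone 14 than in clone 12 with leptomycin B, and Atp5sl rose by similar amounts in both; the difference between clones was not tested. Ndufb2, a small subunit of complex I, went from 7.33 to 13.8 CPM in clone 12 and from 8.02 to 33.4 CPM in clone 14 (1.53, SE 0.38, adjusted p = 0.0166). Cox5b of complex IV went from 48.2 to 65.9 CPM in clone 12 and from 40.0 to 151 CPM in clone 14 (1.22, SE 0.36, adjusted p = 0.0389). Atp5sl went from 6.7 to 10.7 and from 10.8 to 18.2 CPM (0.71, SE 0.18, adjusted p = 0.0191). Without leptomycin B clone 14, or without either untreated library, none of these 3 was called, and without leptomycin B clone 12 Atp5sl was not. The member median was 0.33, with 81 of 84 positive, beside 0.32 for the other genes under 1000 bases and 0.03 for all genes.

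Of 16 tested regulators of mitochondrial biogenesis leptomycin B lowered 4 and raised 0, where 5.7% of all genes were lower, while 10 of the 16 were positive (median 0.06): Pprc1 (-1.17, SE 0.12, adjusted p = 1.3e-05), Nrf1, the factor whose motif is marked in the Ndufaf4 and Atp5k promoters (-0.77, SE 0.11, adjusted p = 0.000268), Ppargc1b (-1.25, adjusted p = 0.0306) and Polg, the mitochondrial DNA polymerase (-0.40, adjusted p = 0.0307). Among assembly factors outside the rule it lowered 3 of 37, Ttc19 (-0.93) and Bcs1l (-0.54) of complex III and Ecsit (-0.43) of complex I, and raised Surf1 (0.49) of complex IV, a count near the 9.99% of all genes called. Atp5k was 0.36 (SE 0.16, adjusted p = 0.178) with leptomycin B, at 121 and 75.2 CPM untreated and 165 and 89.0 CPM treated. Whether the level of Nrf1 bears on Ndufaf4, Atp5k or any other member was not tested.

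**Figure D3:**
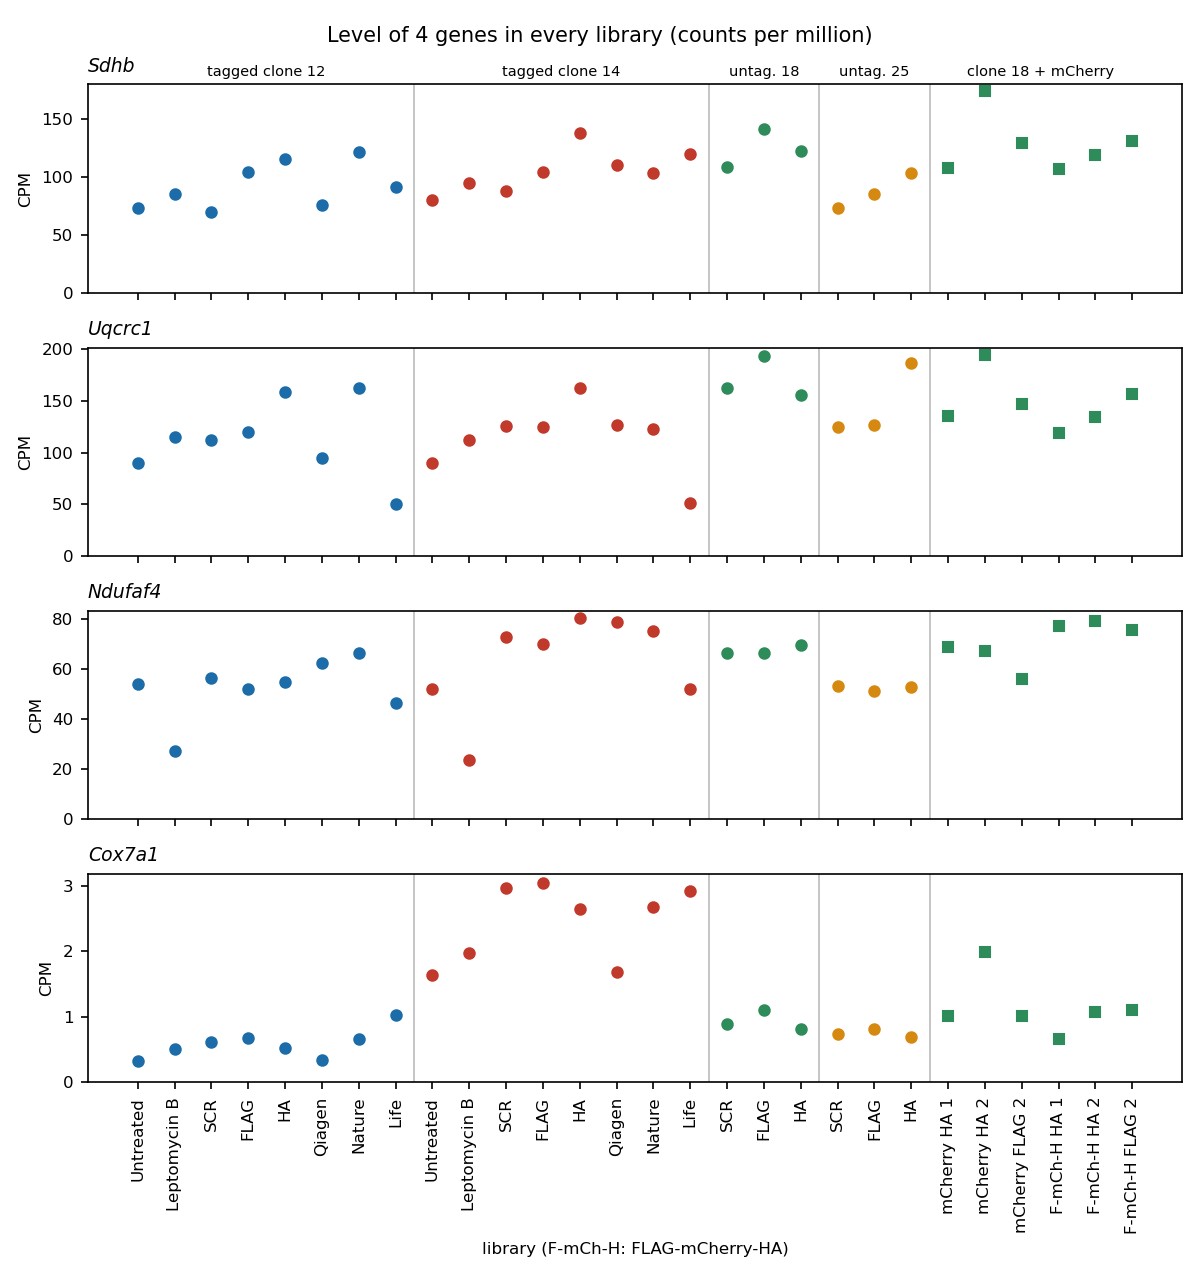
CPM of Sdhb, Uqcrc1, Ndufaf4 and Cox7a1 in each of the 28 libraries, coloured by clone, with squares for the mCherry lines; each axis starts at 0. Sdhb is higher with FLAG and HA siRNA than with SCR in each tagged and each untagged clone. Uqcrc1 is lowest with Life (50.0 and 51.2 CPM), Ndufaf4 with leptomycin B (27.1 and 23.8 CPM), and Cox7a1 is higher in each library of clone 14 than in any of clone 12.

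The mean of the 5 targeting siRNAs against untreated cells gave the highest count of any treatment. It set 10 libraries against 2, where leptomycin B and SCR against untreated each set 2 against 2, so these counts differ in power. In the tagged clones 61 of 84 members rose and 0 fell, where 30.5% of all genes were called, 12.9% higher and 17.6% lower. They were 28 of 35 genes of complex I, 1 of 8 assembly factors, 2 of 4 of complex II, 5 of 8 of complex III, 12 of 13 of complex IV and 13 of 16 of complex V. The largest were Ndufb2 (1.21), Cox5b (1.05), Cox8a (0.96), Cox5a (0.96) and Cox6a1 (0.84), and all 61 had the same sign in both clones. For Cox5a, a matrix-side subunit of complex IV, untreated cells had 46.6 and 50.6 CPM and the 10 targeting libraries 58.8 to 160 CPM, so the groups did not overlap (0.96, SE 0.24, adjusted p = 0.00687). Atp5b was at 1662 and 1049 CPM untreated and at 1467 to 2292 CPM with the targeting siRNAs (0.40, SE 0.13, adjusted p = 0.0258), with overlap between groups across the clones.

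Members with longer transcripts had lower medians, with a wide spread. Among the 8 of 2000 up to 4000 bases, Ndufab1 (0.80), Ndufa10 (0.61), Atp5g1 (0.49) and Sdhc (0.23) rose, and Ndufaf4 (0.24), Atp5a1 (0.21), Ndufs1 (0.01) and Sdha (-0.01) were not called. By length, the 48 tested members under 1000 bases had a median of 0.57 with 43 higher, the 28 of 1000 up to 2000 bases 0.39 with 14 higher, and the 8 of 2000 up to 4000 bases 0.23 with 4 higher. The other genes of these lengths had medians of 0.43, 0.25 and 0.00, with 34.6%, 23.3% and 10.6% higher. Cytosolic ribosomal protein genes rose in 54 of 83 (median 0.41) and mitochondrial ribosomal protein genes in 45 of 77, with 1 lower (median 0.43). With the length trend taken out, 15 members were higher and 1 lower, and the member median was 0.12 in place of 0.51.

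The untreated libraries carry this count. Without untreated clone 14, the lowest of all libraries for the chain, 0 members were called, although the median was still 0.41, and without untreated clone 12 there were 32. The control siRNA SCR alone raised 4 members and lowered 0 against untreated (5.29% of all genes), Ndufa3 (0.60), Cox7a2 (0.59), Cox7b (0.55) and Ndufa1 (0.55), with a member median of 0.37 and 80 of 84 positive. With the length trend taken out it raised 0 and lowered 2, and without either untreated library 0 were called. Both comparisons share the untreated libraries.

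**Figure D4:**
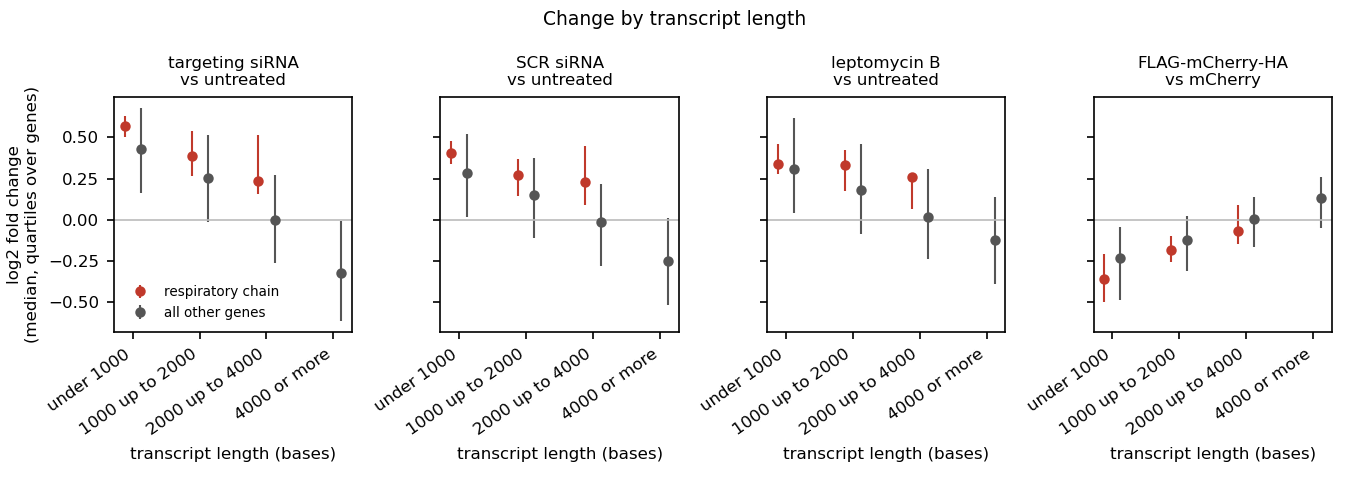
Median log2 fold change, with quartiles over genes, by transcript length for the respiratory chain genes (red) and all other tested genes (grey) in 4 comparisons. Among the other genes short transcripts are higher and long ones lower in the first 3 panels, and in the last panel the order is turned. Against untreated the chain has a higher median than the other genes of its length. The class of 2000 up to 4000 bases holds 8 chain genes, which need not follow the other genes.

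Other mitochondrial lists are to be read against 12.9% of all genes higher and 17.6% lower. With the targeting siRNAs against untreated, 8 of 15 electron carriers and chain partners rose and 1 fell, among them Usmg5 (0.64), Etfa (0.45) and Etfb (0.55), with Gpd2 lower (-0.48). Of 37 assembly factors outside the rule 13 rose and 2 fell, led by Surf1 (0.65), Cox11 (0.64) and Pet100 (0.68). Of the TCA cycle genes 5 of 18 rose, such as Pdhb (0.63) and Sucla2 (0.53), and 0 fell. The biogenesis regulators had 0 of 16 higher and 4 lower, Ppargc1b (-1.33), Hcfc1 (-0.67), Gabpa (-0.44) and Pprc1 (-0.41), close to the share of all genes that were lower.

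More members were called between clones than for any treatment, except for the targeting siRNAs against untreated cells. These counts differ in power, as clones were compared over all matched treatments while most treatment groups held 2 libraries. In both clone comparisons the share of members called was below that of all genes. Between clone 14 and clone 12, over 8 matched treatments, 28 of 84 members were higher and 8 lower, against 62.6% of all genes called (29.2% higher, 33.4% lower). With the length trend taken out the split was 21 higher and 29 lower. These clones also differ in the fibroblast and epithelial markers given above, and the part of that in the result was not tested. Cox7a1 (chromosome 7, 30184171 to 30186030) had the largest difference, 2.11 (SE 0.16, adjusted p = 2.46e-09). It was at 0.325 to 1.03 CPM in the 8 libraries of clone 12, with a median of 0.565, and at 1.63 to 3.05 CPM in those of clone 14, with a median of 2.66, without overlap. The 12 libraries of clones 18 and 25 were at 0.665 to 1.99 CPM, the highest of them, mCherry HA replicate 2, within the range of clone 14. Summed over the 6 muscle markers, clones 12 and 14 were at 0 to 0.0744 and 0 to 0.100 CPM, and clone 18 was at 5.32 to 13.1 CPM. In clone 18 nearly all of this sum was Des alone. Cox7a1 was called in all 23 alternative fits.

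Of 8 assembly factors of complex I, 4 were higher in clone 14 and 0 lower, where 29.2% of all genes were higher, among them Ndufaf3 (0.78), Atp5sl (0.59) and Ndufaf1 (0.57), each in 8 of 8 treatments. Ndufs3 (0.64), a core subunit of complex I, was higher too. Lower in clone 14 in 8 of 8 treatments were Atp5k (-0.50, SE 0.08, adjusted p = 3.36e-05), subunit e of the ATP synthase, Cox6c (-0.43), Atp5b (-0.43) and Ndufs8 (-0.30). Atp5k ran from 121 to 226 CPM in clone 12 and from 75.2 to 161 CPM in clone 14, so the clones overlapped across treatments while each pair differed in 1 direction.

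Between untagged clones 25 and 18, over 3 matched siRNAs, 28 members were lower and 1 higher in clone 25, against 47.6% of all genes (22.9% higher, 24.6% lower). With the length trend taken out the split was 18 higher and 17 lower. Markers differed between these clones too: over 9 libraries of clone 18, mCherry lines included, and 3 of clone 25, the median sum of epithelial markers was 841 against 437 CPM, and that of fibroblast markers 9918 against 8055 CPM. Des was at 9.18 against 0.674 CPM, Col1a2 at 636 against 1439 CPM and Thy1 at 61.4 against 201 CPM, and their part in the result was not tested. Complex I had 14 of 35 lower, complex III 4 of 8, complex IV 3 of 13, complex V 3 of 16, complex II 2 of 4 and the assembly factors 2 of 8. Cox8a was at 115, 213 and 164 CPM in clone 18 with SCR, FLAG and HA and at 37.8, 70.6 and 132 CPM in clone 25 (-1.17, SE 0.29, adjusted p = 0.00306). Cox6a1 was -1.06 (adjusted p = 0.00607), with 94.7, 171 and 121 CPM against 38.0, 54.3 and 105 CPM. Sdha (-0.33) and Uqcrc2 (-0.31) were lower by similar amounts with all 3 siRNAs. Ndufaf7 alone was higher (0.34, adjusted p = 0.0121). Cytosolic and mitochondrial ribosomal protein genes had medians of -0.28 and -0.37, beside -0.25 for the members, and other genes under 1000 bases -0.28. The pair with HA siRNA differed least: without either HA library 37 members were called. Without FLAG clone 18 there were 9, without FLAG clone 25 there were 8, and without either SCR library 13.

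Tagged against untagged clones with SCR siRNA gave 0 called members and 0% of all genes in edgeR (0% higher and 0% lower). There 0 members and 431 genes in all had an unadjusted p under 0.05, and DESeq2 called 0 members and 177 genes. The smallest p among the members was for Uqcrb (0.53, unadjusted p = 0.0562), followed by Atp5g2 (0.47, unadjusted p = 0.0803). With 2 clones of each kind, and clones that differ as described, tag and clone cannot be told apart.

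FLAG-mCherry-HA against mCherry in clone 18 offered FLAG and HA siRNA a target other than cyclin D1. It gave 0 called members and 0% of all genes in edgeR. Unadjusted p was under 0.05 for 32 of 84 members and 1358 genes in all, DESeq2 called 0 members and 15 genes, and 5 of 84 were positive, with a median of -0.24 against 0.00 for all genes. Ndufb2 was at 17.3, 29.0 and 20.0 CPM in the mCherry lines and at 8.65, 11.4 and 14.3 CPM in the tagged-mCherry lines (-0.95, SE 0.31, adjusted p = 0.529). The pair with HA siRNA replicate 2 differed most, as for Ndufb6 (-1.14 against -0.34 and -0.28 in the other pairs), and its mCherry library was the one with 2.75% Rn45s and the highest level of the chain. The other genes under 1000 bases had a median of -0.23 in the same comparison.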

How the data were processed

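RNA was extracted the morning after treatment and sequenced from oligo(dT)-selected stranded libraries as single reads of 100 bases, per the labels' protocols. The submitters' processing notes name HTSeq 0.6.1p1, TopHat2 2.0.13 with Bowtie2 2.2.3, FastQC and CASAVA 1.8.2, and the build mm10; strand setting and annotation: not given in the sources used here. The authors deposited raw counts per gene, 24079 rows by 28 libraries, and all columns were used. The 22 rows without a gene ID were at most 0.0137% of a library. The titles carry an n whose meaning is not given, and each library was treated as 1 sample. The lowest chi-square per degree of freedom among 378 pairs of libraries was 14.3, so none was a repeat.

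The quasi-likelihood model of edgeR 4.0.16 (R 4.3.3), robust and with TMM factors, was fitted to genes kept by filterByExpr, over all 28 libraries, 15 groups and 15099 genes, with the clone or mCherry pair as a block and 11 residual degrees of freedom. Same-clone libraries come from the same line, and their deviations correlated at 0.900 to 0.975 in 62 pairs. A gene was called at a Benjamini-Hochberg adjusted p under 0.05 over all genes tested. Standard errors are the log2 fold change over the root of F. Tagged against untagged clones used the 4 SCR libraries, 13233 genes and no block. CPM and RPKM use the TMM-scaled library sizes; log2 levels used a prior count of 2. Transcript lengths were medians over the GENCODE transcripts of each gene, taking protein-coding ones with a RefSeq match where there were any. Positions came from RefSeq GRCm38.p6. Both sources covered all 92 members. The fit was tested on simulated data.

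The members, the gene lists, the motifs and the comparisons were chosen with earlier results of these data known. Named genes were, per comparison, called members of at least 1 CPM with the same sign in every block, the 10 largest and 10 smallest changes, and the 5 members of smallest p where fewer than 3 were called; also the Sdh genes, the isoform sets and up to 4 called genes per list. The 8 longest members in the comparison with untreated cells, Ndufs3 between clones 14 and 12 and Atp5k with leptomycin B fall outside this rule and were chosen after their values were seen. Alternatives were other size factors, filters, DESeq2 1.42.0, no block, only the libraries compared, the length trend removed (a lowess of log2 level on log2 transcript length in each library, as an offset), no libraries over 2% Rn45s, and each library left out. Life against the other 4 siRNAs and the split by length were added after seeing the data. Results for 1 member are not reported here.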

Additional observations from a re-analysis of the deposited data

How the results depend on the processing

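Of 139 values recomputed for the 18 counts of called members, leave-one-out fits aside, 95 stayed within 1.5 times the reported count and 44 moved. The 95 include counts of 0 that stayed 0. Such counts came from the response of tagged minus untagged clones, tagged against untagged clones with SCR, and the mCherry lines, where few or no genes of any kind were called. Without the clone as a replicate block, the count fell to 0 for the tag siRNAs and cyclin D1 siRNAs in tagged clones, the tag siRNAs in untagged clones, FLAG, HA, Qiagen and Nature in tagged clones, FLAG and HA in untagged clones, leptomycin B, SCR against untreated and the targeting siRNAs against untreated, and to 1 for Life; the clones themselves were not refitted without it. Fitting the libraries compared alone gave 30 for the tag siRNAs, 0 for the cyclin D1 siRNAs, 0 for the tag siRNAs in untagged clones, 3 for FLAG, 53 for HA, 1 for Nature, 10 for Life, 17 and 8 for FLAG and HA in untagged clones and 61 for leptomycin B. The cause was not tested. With the length trend removed there were 3 for the cyclin D1 siRNAs, 2 for the tag siRNAs in untagged clones, 3 for FLAG, 4 for HA, 2 for Qiagen, 4 for HA in untagged clones, 2 for SCR against untreated and 16 for the targeting siRNAs against untreated. DESeq2 gave 2, 3, 8, 2, 10 and 15 for the cyclin D1 siRNAs, the tag siRNAs in untagged clones, Nature, HA in untagged clones, leptomycin B and SCR against untreated. A minimum of 1 CPM gave 8 for leptomycin B and 8 for SCR against untreated. Without libraries over 2% Rn45s there were 1 for HA, 20 for Nature, 1 for Life, 0 for FLAG in untagged clones and 7 for leptomycin B.

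Leaving out 1 library at a time gave ranges of 0 to 1 for the tag siRNAs, 0 to 2 for the cyclin D1 siRNAs, 0 to 3 for the tag siRNAs in untagged clones, 0 to 0 for FLAG, 0 to 3 for HA, 0 to 1 for Qiagen, 0 to 26 for Nature, 1 to 2 for Life, 0 to 1 and 0 to 3 for FLAG and HA in untagged clones, 1 to 3 for leptomycin B, 0 to 1 for SCR against untreated, 0 to 68 for the targeting siRNAs against untreated, 27 to 45 for clone 14 against 12 and 8 to 37 for clone 25 against 18. An arm left with 1 library was assumed to vary like the other groups. Of 1997 values for named genes 1685 kept direction and side of the threshold, 278 lost it, 31 gained it and 3 reversed, all with the length trend removed: Cox7c (-0.091) and Uqcrb (-0.035) with the targeting siRNAs against untreated, and Cox6b1 (0.042) in clone 25 against 18. Depth limits the 7 isoforms under the filter that had counts, for which no change was detectable.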
